A study of Mus musculus with 12 samples.

Results

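Among 5856 genes measured in mouse liver, 14 had less mRNA at both extremes of Nrf2 activity, that is, in mice with the most Nrf2 activity and in mice with none, than in the genotypes between them. The genes were chosen by their values: the highest of the 6 arrays of Keap1-HKO and Nrf2-null mice had to lie below the lowest of the 6 arrays of Keap1-KD and wild-type mice. In addition, the mean of the first 6 arrays had to be lower by at least 0.3 on the log2 scale. Nfe2l2, the gene that encodes Nrf2, and Aox3 met the same rule, which makes 16 genes (0.273%), and were left out by name, and 18 genes (0.307%) were separated whatever the size of the difference. The 14 genes made up 0.239% of all genes, and 12 genes (0.205%) met the same rule turned round, with more mRNA at both extremes. Because every array took part in the choice, the difference between the extremes and the other genotypes is given as a description without a test.

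Livers came from 8-week-old male mice with a C57BL/6 background, with 3 mice of each of 4 genotypes and 1 Affymetrix mouse genome array per mouse, 12 arrays in all. Keap1-HKO mice carry the Keap1-KD allele together with the AlbCre transgene, whose albumin promoter limits Cre to hepatocytes, so that their other liver cells keep the Keap1-KD allele as it is. Nrf2-null mice lack functional Nrf2 in every cell and had been backcrossed to C57BL/6. Keap1-KD mice, backcrossed in the same way, carry a loxP-flanked Keap1 allele that lowers Keap1 throughout the body, and wild-type mice carry no engineered allele. No mouse received a chemical treatment. Each value is a log2 intensity, computed by the authors with gcRMA before deposit, and can be compared between arrays but not between genes.

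Nrf2 is a transcription factor that, together with small Maf proteins, binds antioxidant response elements and switches on genes for glutathione synthesis, NADPH supply and the conjugation of foreign chemicals. Keap1 holds Nrf2 in the cytoplasm and hands it to the proteasome, so that loss of Keap1 leaves Nrf2 active, and loss of Nrf2 removes even the basal output of these genes. Most known Nrf2 targets therefore change in opposite directions when Keap1 or Nrf2 is lost, whereas the 14 genes described here were lower after either loss.

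The 14 genes encode proteins of different kinds. Nox4, Lactb2, Rgn and Paics encode enzymes, Mup10 a secreted protein, Colec12 and Mfsd4b1 proteins of the cell membrane, and Rpl22l1 a ribosomal protein paralog. Unkl and Znrf3 encode RING finger proteins, Klhl5 a relative of Keap1, Setd2 a histone methyltransferase, Nmi a partner of STAT proteins and Nipsnap3b a member of the NIPSNAP family. No gene of the 31 lists of liver pathways and cell type markers was among the 14. The share of all genes that stand in these lists was not computed, so that this count is no result about the 14. Of 8 cholangiocyte markers 0 were measured. Of 30 listed Nrf2 targets, 26 were measured: 23 rose and 0 fell in Keap1-HKO relative to Nrf2-null mice, 3 rose and 0 fell in Keap1-KD relative to wild-type mice (limma, adjusted p under 0.05), and 0 were separated in the way of the 14 genes.

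Promoter sequence was at hand for 10 of the 14 genes (RefSeq, GRCm38.p6, 250 bases before to 50 bases after the start site, both strands searched). The core of the antioxidant response element, TGACNNNGC, stood in a promoter of 1 of these genes, Rpl22l1, against 14% of all genes with a promoter and 12.4% of all 32851 promoters, since a gene may have several. The GC box GGGCGG stood in 7 of the 10, against 38.2% of all genes and 35.7% of all promoters. TATAAA stood in 3 (15.7% of genes, 13.6% of promoters), CCAAT in 3 (41.1% and 37.4%) and CACGTG in 1 (8.09% and 7.15%). A pair of promoters, each the 250 bases before the start site on the plus strand, is shown: that of Rpl22l1, because it alone of the 10 holds the core element (capitals, first base at −46 from the start site), and that of Nox4, the gene with the largest difference, which holds no core element but a GC box (capitals, first base at −24). The Rpl22l1 promoter is at chr3:28805258-28805507 and that of Nox4 at chr7:87246399-87246648.
Rpl22l1: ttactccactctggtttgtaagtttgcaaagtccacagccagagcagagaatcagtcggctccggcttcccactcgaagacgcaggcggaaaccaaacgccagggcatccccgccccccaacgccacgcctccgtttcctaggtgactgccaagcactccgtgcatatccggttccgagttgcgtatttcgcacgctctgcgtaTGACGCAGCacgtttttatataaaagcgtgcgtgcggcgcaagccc
Nox4: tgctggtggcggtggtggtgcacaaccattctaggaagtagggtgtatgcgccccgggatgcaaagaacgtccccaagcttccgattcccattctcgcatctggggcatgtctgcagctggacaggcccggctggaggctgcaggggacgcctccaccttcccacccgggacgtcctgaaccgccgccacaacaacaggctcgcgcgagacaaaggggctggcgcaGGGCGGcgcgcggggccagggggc
In the Rpl22l1 promoter the core element stands upstream of a pair of overlapping TATAAA matches. The match at −28 is on the printed strand and that at −32 on the other strand, where it is printed as TTTATA. A match describes the letters in the window, and binding of Nrf2 was not measured.

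The targeted genes followed the labels. Nfe2l2 had log2 intensities of 8.11, 7.93 and 8.54 in Keap1-HKO, 2.46, 2.29 and 2.29 in Nrf2-null, 8.65, 9.03 and 8.81 in Keap1-KD and 8.81, 8.94 and 8.93 in wild-type mice. Keap1 was at 3.34, 3.39 and 3.34 in Keap1-HKO, 8.07, 7.67 and 7.72 in Nrf2-null, 5.92, 5.59 and 5.59 in Keap1-KD and 7.97, 7.80 and 7.81 in wild-type mice. Of 10 hepatocyte markers 9 were measured, with summed un-logged intensities of 309600 to 341200 in Keap1-HKO, 372200 to 392100 in Nrf2-null, 359800 to 370600 in Keap1-KD and 358100 to 390500 in wild-type mice. The markers were thus strong on every array, with the Keap1-HKO sums below all others.

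Some arrays stood apart from the rest. Replicate 1 of Keap1-HKO deviated from its genotype mean by 0.60 on average over all genes (log2, absolute) and replicate 1 of Nrf2-null mice by 0.39, against 0.10 to 0.37 for the other 10 arrays. The share of genes under an intensity of 100 was 14.9% on Keap1-HKO replicate 1 and 11.9% on Nrf2-null replicate 1, and 7.39% to 9.15% elsewhere. For Actb the 3′ probe set exceeded the 5′ probe set by 2.03 and 2.36 on these arrays, against 2.51 to 2.91 on the others. For Gapdh it did so by 0.19 on Keap1-HKO replicate 1, while Nrf2-null replicate 1, at 0.54, lay within the 0.53 to 0.93 of the others. Pancreas acinar transcripts (16 of 21 markers measured, 0 of them under an intensity of 100 on every array) summed to 523.3 to 237800 in Keap1-HKO, 1156 to 1370 in Nrf2-null, 512.9 to 728.3 in Keap1-KD and 712.5 to 1338 in wild-type mice. Skeletal muscle transcripts (12 of 21 measured, 0 under 100 on every array) summed to 437.1 to 36020 in Keap1-HKO, 210.2 to 399.7 in Nrf2-null, 343.2 to 479 in Keap1-KD and 216.5 to 26100 in wild-type mice, and were high on replicates 2 and 3 of Keap1-HKO and replicate 2 of wild-type mice. The part of these transcripts in the results was not tested.

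Nox4 encodes an NADPH oxidase that makes hydrogen peroxide. Its log2 intensities were 5.69, 8.78 and 8.81 in Keap1-HKO, 7.25, 8.81 and 8.75 in Nrf2-null, 8.92, 9.04 and 9.56 in Keap1-KD and 9.51, 9.72 and 8.83 in wild-type mice. Replicate 1 was far lower than the other replicates in both extreme genotypes, and replicates 2 and 3 lay just under the lowest wild-type array. The extremes averaged 8.01 ± 1.29 and the other genotypes 9.26 ± 0.38 (log2, SD, n = 6 each), a difference of −1.25, the largest of the 14. In un-logged intensity Nox4 mRNA was 48.0% lower at the extremes, and 30.1% lower without replicate 1 of both. In bulk liver, fewer cells of a type and less RNA per cell cannot be told apart.

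A second Nox4 probe set, with lower intensity, met the rule as well. It read 5.27, 6.96 and 6.83 in Keap1-HKO, 5.99, 7.01 and 6.68 in Nrf2-null, 7.15, 7.17 and 7.83 in Keap1-KD and 7.45, 8.01 and 7.07 in wild-type mice, a difference of −0.99. Both Nox4 probe sets thus put replicate 1 of Keap1-HKO lowest. Other genes of the oxidase family, picked after the 14 genes were known, did not separate: the difference was −0.02 for Cybb, the phagocyte oxidase subunit, 0.54 for Cyba, the shared membrane partner, and 0.27 for Poldip2, an activator of Nox4. Without replicate 1 of both, Cybb was at 0.27, Cyba at 0.31 and Poldip2 at 0.07.

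Lactb2, a mitochondrial endoribonuclease with a lactamase-like fold, had the same shape. It was at 8.99, 11.37 and 11.39 in Keap1-HKO, 9.85, 11.33 and 11.10 in Nrf2-null, 11.53, 11.70 and 11.67 in Keap1-KD and 11.58, 11.70 and 11.42 in wild-type mice. The low values were again those of replicate 1, and Keap1-HKO replicate 3 came within 0.03 of the lowest wild-type array. The difference was −0.93 with all arrays and −0.30 without replicate 1 of both extreme genotypes, so that 32.6% of it was left, the smallest share of the 14 genes. A second Lactb2 probe set differed by −0.92, but its arrays overlapped.

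Rgn, also called regucalcin or senescence marker protein, encodes the gluconolactonase of vitamin C synthesis in rodents. Its log2 intensities were 12.45, 13.93 and 13.97 in Keap1-HKO, 13.73, 14.27 and 14.20 in Nrf2-null, 14.27, 14.50 and 14.32 in Keap1-KD and 14.39, 14.66 and 14.54 in wild-type mice. The Keap1-HKO arrays were all below 14, and Nrf2-null replicate 2 lay only 0.0011 below Keap1-KD replicate 1, the smallest gap of the 14. Rgn mRNA was 33.6% lower at the extremes and 21.8% lower without replicate 1 of both. Of the other vitamin C genes, Gulo, the last enzyme of the route, differed by −0.25, Ugp2 by −0.21, Akr1a1 by −0.09 and Ugdh by −0.08, and the arrays of all 4 overlapped. Without replicate 1 of both, Gulo was at −0.47 and Akr1a1 at −0.15, whereas Ugp2 (0.17) and Ugdh (0.12) changed sign. For Ugdh and Akr1a1 the small difference averages opposite changes at the extremes. Ugdh was higher in Keap1-HKO than in Nrf2-null mice by 2.82 (limma adjusted p = 7.1e-05) and Akr1a1 by 0.66 (limma adjusted p = 0.00781). In the same contrast Ugp2 differed by 1.09 (limma adjusted p = 0.109) and Gulo by 0.04 (limma adjusted p = 0.963).

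Colec12, a collectin-type scavenger receptor, was at 6.82, 8.12 and 8.09 in Keap1-HKO, 7.14, 8.15 and 7.63 in Nrf2-null, 8.38, 8.46 and 8.53 in Keap1-KD and 8.18, 8.19 and 8.45 in wild-type mice. Replicate 1 was lowest in both extreme genotypes, and Nrf2-null replicate 2 almost reached the wild-type arrays, with a gap of 0.02. Colec12 mRNA was 35.1% lower at the extremes and 21.9% lower without replicate 1 of both. Colec12 is known from vascular endothelial cells. The 10 measured Kupffer cell and macrophage markers summed to 5659 to 6258 in Keap1-HKO, 6300 to 8078 in Nrf2-null, 5544 to 5916 in Keap1-KD and 6081 to 7744 in wild-type mice, and 0 of them passed the test in Keap1-HKO against Nrf2-null or in Keap1-KD against wild-type mice. The 11 endothelial markers summed to 4633 to 5656 in Keap1-HKO, 5042 to 6514 in Nrf2-null, 4966 to 5359 in Keap1-KD and 4835 to 5130 in wild-type mice. Of these, 1 was lower in Keap1-HKO than in Nrf2-null mice (Bmp2, a growth factor, log2 difference −0.53, limma adjusted p = 0.0118) and 0 passed in Keap1-KD against wild-type mice. Of 9 measured stellate cell and fibroblast markers, 6 were lower at the extremes (median difference −0.23), and 0 passed in either contrast. Over all genes, 9.14% passed in Keap1-HKO against Nrf2-null and 0.0683% in Keap1-KD against wild-type mice. With so few markers, the counts that passed are no result about the cell types. For none of these lists were the sums of the 6 extreme arrays all below those of the other arrays. Of 5 measured collectins and scavenger receptors, Colec10 (−1.18), Colec11 (−0.23) and Msr1 (−0.15) were lower at the extremes. Scarb1 (0.09) and Cd36 (0.16) had higher means, and all 5 overlapped. For Cd36 the small difference averages opposite changes at the extremes. Cd36 was higher in Keap1-HKO than in Nrf2-null mice by 3.48 (limma adjusted p = 0.00405). Without replicate 1 of both, Colec10 was at −0.14, Colec11 at −0.25 and Cd36 at 0.78, while Msr1 (0.27) and Scarb1 (−0.04) changed sign.

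Mup10 belongs to the major urinary proteins, which hepatocytes secrete as pheromone carriers. It read 8.72, 9.60 and 9.0 in Keap1-HKO, 8.30, 9.46 and 9.21 in Nrf2-null, 9.98, 9.79 and 9.93 in Keap1-KD and 9.80, 10.70 and 10.18 in wild-type mice. The gap between the groups was 0.19, and the difference was −1.01 with all arrays and −0.75 without replicate 1 of both, the largest that then remained. In un-logged intensity Mup10 mRNA was 49.6% lower at the extremes. Mup genes are near-identical copies, so that the probe set may read several of them. Mup3 and Mup5, the other measured copies, differed by −0.60 and −0.23, and by −0.25 and −0.10 without replicate 1 of both, and the arrays of both overlapped.

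Rpl22l1 encodes a paralog of the ribosomal protein Rpl22 and is the gene whose promoter with the core element is shown above. It was at 10.99, 11.11 and 11.61 in Keap1-HKO, 10.82, 11.56 and 11.34 in Nrf2-null, 11.76, 11.97 and 12.15 in Keap1-KD and 11.63, 12.04 and 11.75 in wild-type mice. Keap1-HKO replicate 2 was low as well as replicate 1, and 74.0% of the difference of −0.64 was left without replicate 1 of both. Rpl22 itself differed by −0.21 and overlapped, and the median difference of 14 ribosomal protein genes was 0.08.

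**Figure D1:**
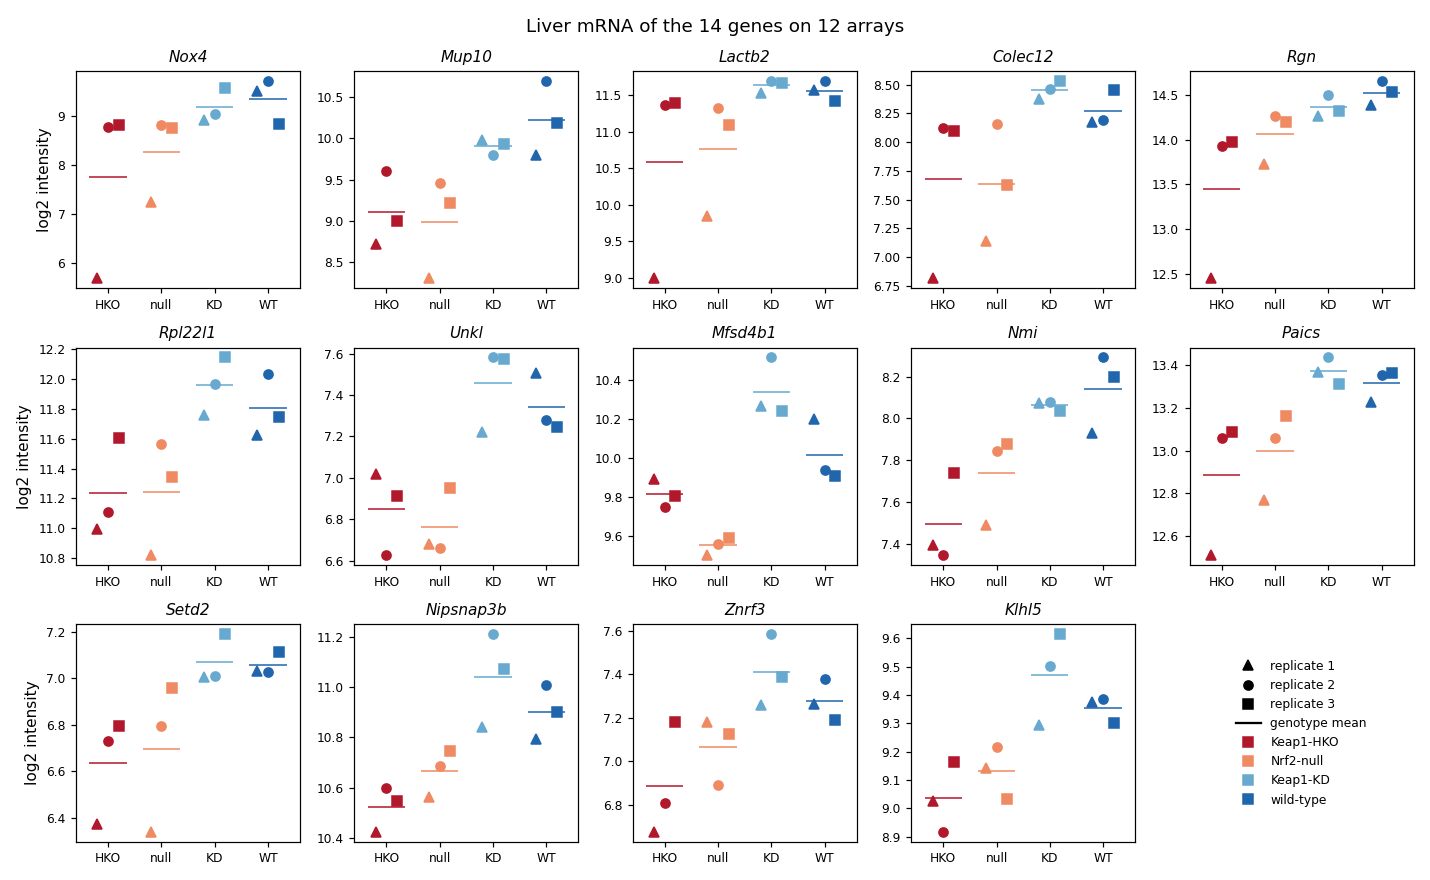
Log2 intensity (y axis, its own scale for each gene) of the 14 genes on the 12 arrays, by genotype (x axis); each symbol is 1 mouse, its shape the replicate number, and each line the genotype mean of 3 mice. In every panel the 6 left symbols (Keap1-HKO and Nrf2-null) lie below the 6 right ones, which is how the genes were chosen, and the triangles of replicate 1 lie far below the rest for Nox4, Lactb2, Colec12 and Rgn but not for Unkl, Mfsd4b1, Znrf3 or Klhl5.

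Unkl, a zinc finger and RING finger protein related to unkempt, had the widest gap, 0.21. Its log2 intensities were 7.02, 6.63 and 6.91 in Keap1-HKO, 6.68, 6.66 and 6.95 in Nrf2-null, 7.22, 7.58 and 7.58 in Keap1-KD and 7.51, 7.28 and 7.24 in wild-type mice. Replicate 1 was the highest array of Keap1-HKO mice, and the difference was −0.59 with all arrays and −0.61 without replicate 1 of both. Unkl mRNA was thus 33.7% lower at the extremes, and 34.7% lower without these arrays. The intensities were low, and the extreme arrays at 6.63, 6.66 and 6.68 lay next to the limit of 6.64 on the log2 scale (an intensity of 100).

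Mfsd4b1, of the major facilitator family of sugar carriers, was tight within genotypes at 9.89, 9.75 and 9.80 in Keap1-HKO, 9.50, 9.56 and 9.59 in Nrf2-null, 10.27, 10.51 and 10.24 in Keap1-KD and 10.20, 9.94 and 9.91 in wild-type mice. All 3 Nrf2-null arrays lay below all 3 Keap1-HKO arrays, and all 3 Keap1-KD arrays above all 3 wild-type arrays. The gap between Keap1-HKO replicate 1 and wild-type replicate 3 was 0.02, and the difference of −0.49 was −0.50 without replicate 1 of both. A second Mfsd4b1 probe set differed by −0.47 and another, shared with Mfsd4b2, by −0.32, and the arrays of both overlapped.

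Nmi, an interferon-induced partner of Myc and STAT proteins, was at 7.40, 7.35 and 7.74 in Keap1-HKO, 7.49, 7.84 and 7.88 in Nrf2-null, 8.07, 8.08 and 8.03 in Keap1-KD and 7.93, 8.29 and 8.20 in wild-type mice. Its lowest array was Keap1-HKO replicate 2, and 82.3% of the difference of −0.49 was left without replicate 1 of both. The related genes Ifi35 (0.18), Stat3 (0.38) and Stat5b (0.09) had differences in the other direction with all arrays, and their arrays overlapped, but without replicate 1 of both Ifi35 (−0.07) and Stat5b (−0.15) changed sign. Over 9 measured interferon response genes the median difference was 0.05, and 0 were separated.

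Paics encodes an enzyme that carries out a pair of consecutive steps of purine synthesis. It read 12.51, 13.06 and 13.09 in Keap1-HKO, 12.77, 13.06 and 13.16 in Nrf2-null, 13.37, 13.44 and 13.31 in Keap1-KD and 13.23, 13.35 and 13.36 in wild-type mice. Replicate 1 was lowest in both extreme genotypes, while the arrays of the other genotypes were close together (SD 0.07, n = 6). Paics mRNA was 23.5% lower at the extremes and 16.0% lower without replicate 1 of both. A second Paics probe set met the rule (difference −0.38), and another, also at −0.38, overlapped. The 9 other measured purine genes lay on both sides, from −0.36 (Prps2) to 0.38 (Atic), with Ppat, the enzyme of the committed step, at −0.34, and 0 were separated. Without replicate 1 of both, Prps2 was at 0.10, Atic at 0.17 and Ppat at −0.12.

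Setd2, the methyltransferase for trimethylation of lysine 36 of histone H3, was a low-intensity gene. Its values were 6.37, 6.73 and 6.80 in Keap1-HKO, 6.34, 6.80 and 6.96 in Nrf2-null, 7.01, 7.01 and 7.19 in Keap1-KD and 7.03, 7.03 and 7.11 in wild-type mice. The replicate 1 arrays of both extreme genotypes were below an intensity of 100, and without them the difference of −0.40 became −0.24. Nsd3, another histone H3 methyltransferase, differed by −0.47 with overlapping arrays, and by −0.10 without replicate 1 of both. It was lowest in Keap1-HKO mice, at 6.51, 8.32 and 7.94, and read 8.60, 8.56 and 8.46 in Keap1-KD mice. All Nrf2-null arrays (8.80, 9.71 and 9.05) and wild-type arrays (9.09, 9.44 and 8.97) lay above these. Between the extremes Nsd3 differed by −1.60 (limma adjusted p = 0.0369).

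The 3 genes just inside the limit of 0.3 varied less over the extreme arrays, with an SD of 0.11 for Nipsnap3b, 0.21 for Znrf3 and 0.11 for Klhl5 (n = 6), against 1.29 for Nox4. Nipsnap3b was at 10.42, 10.60 and 10.55 in Keap1-HKO, 10.56, 10.69 and 10.75 in Nrf2-null, 10.84, 11.21 and 11.07 in Keap1-KD and 10.79, 11.01 and 10.90 in wild-type mice. Its relatives Nipsnap1 and Nipsnap2 differed by −0.07 and −0.23, and by −0.24 and −0.11 without replicate 1 of both, and overlapped. Nipsnap2 was higher in Keap1-HKO than in Nrf2-null mice by 1.60 (limma adjusted p = 0.0106), which the mean of the extremes hides, and Nipsnap1 differed by −0.08 there. For Nipsnap3b the Keap1-HKO mean was the lowest of the 4 genotypes, and the difference was −0.38 with all arrays and −0.32 without replicate 1 of both.

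Znrf3, a membrane ubiquitin ligase that removes Wnt receptors, was at 6.67, 6.81 and 7.18 in Keap1-HKO, 7.18, 6.89 and 7.12 in Nrf2-null, 7.26, 7.58 and 7.38 in Keap1-KD and 7.26, 7.38 and 7.19 in wild-type mice. The gap between Keap1-HKO replicate 3 and wild-type replicate 3 was only 0.01, and the difference was −0.37 with all arrays and −0.34 without replicate 1 of both. The 8 other measured Wnt genes, among them the pericentral hepatocyte genes Glul (−0.14), Cyp2e1 (−0.05) and Tbx3 (−0.17), all differed in the same direction, from −0.77 (Lrp6, a Wnt co-receptor) to −0.02 (Tcf7l2), but 0 were separated. Without replicate 1 of both, Lrp6 was at −0.20, and the range ran from −0.52 (Fzd7, a Wnt receptor) to −0.07 (Cyp2e1).

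Klhl5 encodes a BTB-kelch protein, of the family to which Keap1 belongs. It was at 9.03, 8.92 and 9.16 in Keap1-HKO, 9.14, 9.22 and 9.03 in Nrf2-null, 9.30, 9.50 and 9.61 in Keap1-KD and 9.38, 9.39 and 9.30 in wild-type mice. Replicate 1 stood within the other replicates of both extreme genotypes, and the difference was −0.33 with and without it. Of the other measured family members, Klhl24 (−0.68), Klhl9 (−0.65), Klhl13 (−0.52), Klhl2 (−0.43), Klhl7 (−0.41) and Klhl22 (−0.11) differed in the same direction with overlapping arrays. That shared direction rested in part on replicate 1: without it in both extreme genotypes Klhl7 changed sign, to 0.14, Klhl24 was at −0.05 and Klhl9 at −0.14. Outside the limit, Pon1, a paraoxonase of high density lipoprotein (−0.29), and Pid1 (−0.26) were separated but differed too little. Rcor1 (−0.36), Pipox (−0.46) and Sesn3 (−0.74) differed enough, and their groups overlapped by less than 0.01.

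Whether replicate 1 of the extreme genotypes drove the set was examined by leaving arrays out. That can change the size of a difference but cannot undo the separation. Keap1-HKO replicate 1 was the lowest of the 6 extreme arrays for 7 of the 14 genes, Nrf2-null replicate 1 for 4 and Keap1-HKO replicate 2 for 3. Keap1-HKO replicate 1 lay below both other Keap1-HKO arrays for 10 of the 14 genes, against 37.7% of all genes, and Nrf2-null replicate 1 below both other Nrf2-null arrays for 11, against 37.6% of all genes. The rule chose genes that are low on these same arrays, so that the counts cannot be read as a result against the shares of all genes. The mean of the 14 genes was 8.78 and 9.05 on these arrays, 9.48 to 9.59 on the other extreme arrays and 9.87 to 10.05 on the Keap1-KD and wild-type arrays.

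The deviation of replicate 1 from the mean of replicates 2 and 3 was largest for Nox4, at −3.10 in Keap1-HKO and −1.53 in Nrf2-null mice, followed by Lactb2, at −2.39 and −1.37. It was −1.50 and −0.50 for Rgn, −1.29 and −0.75 for Colec12, and −0.58 and −1.03 for Mup10. Klhl5 (−0.01 and 0.02), Mfsd4b1 (0.12 and −0.07) and Unkl (0.25 and −0.13) showed no such shift. In Keap1-HKO mice 4 genes and in Nrf2-null mice 3 were lower by more than 1 on replicate 1. The lower intensities, the larger share of dim genes and the smaller Actb 3′ to 5′ difference occurred on the same arrays, the smaller Gapdh 3′ to 5′ difference on Keap1-HKO replicate 1 alone, and their part in these deviations was not tested.

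**Figure D2:**
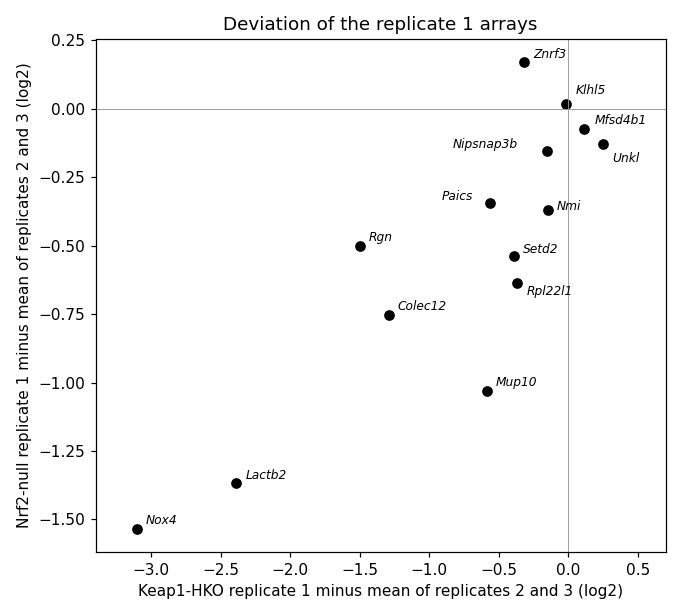
Log2 intensity of replicate 1 minus the mean of replicates 2 and 3, in Keap1-HKO (x axis) and Nrf2-null mice (y axis), with 1 point per gene. Nox4 and Lactb2 lie at the lower left, at −3.10 and −1.53 and at −2.39 and −1.37, and Klhl5, Mfsd4b1 and Unkl near 0 on both axes.

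Leaving out replicate 1 of both extreme genotypes kept 12 of the 14 genes within the rule. Paics (−0.25) and Setd2 (−0.24) were lost because the difference became smaller than 0.3, not because the arrays overlapped, which removal of arrays cannot cause. The median difference of the 14 genes was −0.54 with all arrays (median of all genes, 0.02) and −0.36 without both. The share of the difference that was left was 32.6% for Lactb2, 38.1% for Nox4, 51.7% for Colec12 and for Rgn, 61.1% for Setd2 and 62.5% for Paics. It was 73.5% for Mup10, 74.0% for Rpl22l1, 82.3% for Nmi, 86.4% for Nipsnap3b and 93.3% for Znrf3, and 100.2% to 103.4% for Klhl5, Mfsd4b1 and Unkl. The size of the difference thus rested largely on replicate 1 for Nox4 and Lactb2, while for Unkl, Mfsd4b1 and Klhl5 it did not.

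**Figure D3:**
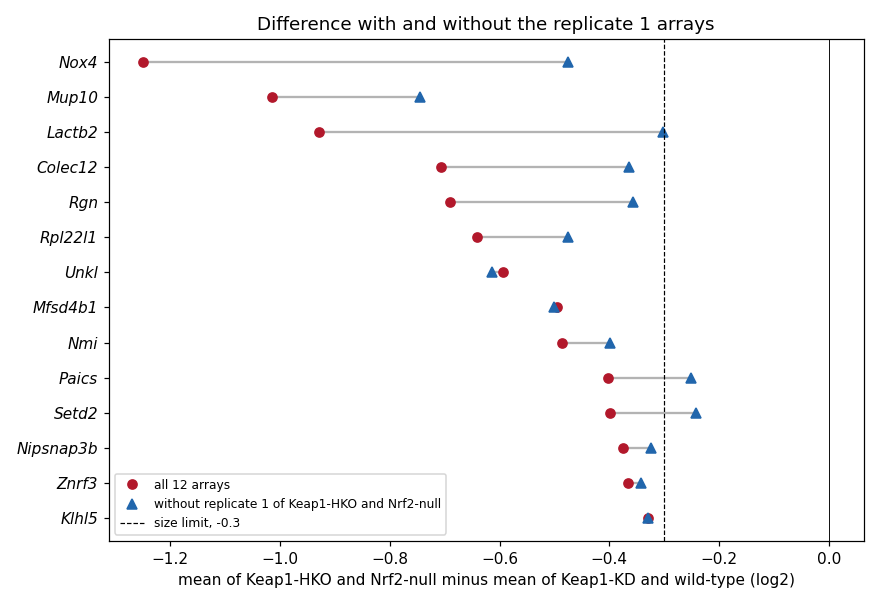
Mean of Keap1-HKO and Nrf2-null minus mean of Keap1-KD and wild-type mice (x axis, log2) for each gene (y axis), with all 12 arrays (circles) and without replicate 1 of Keap1-HKO and Nrf2-null (triangles); the dashed line is the limit of −0.3. Nox4 has −1.25 and −0.48, Lactb2 −0.93 and −0.30, and Klhl5 −0.33 in both.

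With replicate 1 of both left out, the rule found 26 genes in place of 14, since fewer arrays have to lie below the others. Of the 14 added genes, Tmem19 (−1.07), Nars2, the mitochondrial asparaginyl-tRNA synthetase (−0.81), and Ces1f, a carboxylesterase (−0.75), had the largest differences on these arrays, as large as that of Mup10 or larger, and are named after their values were seen. With replicate 2 or replicate 3 of both left out it found 73 and 56. Turned round, it found 17, 112 and 60 genes in place of 12. Without Keap1-HKO replicate 1 alone it found 18 genes and without Nrf2-null replicate 1 alone 17.

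Against wild-type mice each extreme genotype had its own size of difference. In Keap1-HKO mice it ran from −1.59 (Nox4) to −0.20 (Mfsd4b1), with a median of −0.53, and in Nrf2-null mice from −1.23 (Mup10) to −0.21 (Znrf3), with a median of −0.46. These values share the wild-type arrays and follow from the rule in their direction.

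A pair of contrasts did not enter the difference of means in the rule, namely that between the extremes themselves and that between Keap1-KD and wild-type mice. The separation in the rule nevertheless used every array, so that it limits both contrasts among the 14 genes, and their counts cannot be read as a result against the shares of all genes, which are printed as background. In Keap1-HKO against Nrf2-null mice 0 of the 14 genes passed the limma test (adjusted p under 0.05; 535 of all genes, 9.14%), and 0 of the 14 had an unadjusted p under 0.05 (22.1% of all genes). The median log2 difference was −0.10 for the 14 genes and −0.05 for all genes.

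The largest differences between the extremes were those of Rgn and Nox4. Rgn averaged 13.45 ± 0.87 in Keap1-HKO and 14.07 ± 0.29 in Nrf2-null mice (SD, n = 3 each), a log2 difference of −0.62 (standard error 0.35, limma adjusted p = 0.354). Same-numbered arrays of the extreme genotypes deviated together, and with the replicate number as a block within them Rgn was lower in Keap1-HKO mice (standard error 0.19, limma adjusted p = 0.0364). In that fit 1 of the 14 genes was called, and 28.9% of all genes. The size of the Rgn difference depended on replicate 1, in fits with no block. Rgn differed by −0.12 (limma adjusted p = 0.674) without Keap1-HKO replicate 1, which keeps the same-numbered Nrf2-null array. Without replicate 1 of both it differed by −0.28 (limma adjusted p = 0.136). Nox4 differed by −0.51 (standard error 0.76, limma adjusted p = 0.786), less than the spread between replicates, and by 0.01 without replicate 1 of both.

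Mfsd4b1 had the lowest adjusted p of the 14 genes, with 9.81 ± 0.07 in Keap1-HKO and 9.55 ± 0.05 in Nrf2-null mice (SD, n = 3 each), a difference of 0.26 (standard error 0.13, limma adjusted p = 0.267). Duncan's multiple range test, which the methods name and which is not adjusted over genes, called it higher in Keap1-HKO mice, 1 of the 14 genes against 6.85% of all genes. Nmi differed by −0.24 (standard error 0.16, limma adjusted p = 0.440). The remaining 10 genes differed by −0.18 (Znrf3) to 0.12 (Mup10), and Rpl22l1 by −0.01 (standard error 0.23).

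Between Keap1-KD and wild-type mice 0 of the 14 genes passed the limma test (4 of all genes, 0.0683%). At an unadjusted p under 0.05, Mfsd4b1 alone was higher in Keap1-KD mice, 1 of the 14 against 1.42% of all genes. It averaged 10.34 ± 0.15 in Keap1-KD and 10.02 ± 0.16 in wild-type mice (SD, n = 3 each), a difference of 0.32 (standard error 0.13, unadjusted p = 0.0288, limma adjusted p = 1), and Duncan's test called it higher as well, 1 of the 14 against 1.38% of all genes. The Keap1-KD mean was the higher for 10 of the 14 genes, with a median difference of 0.09 (all genes, −0.01), and the lower for Nox4 (−0.18), Mup10 (−0.32), Rgn (−0.16) and Nmi (−0.08). The standard errors of this contrast hold the spread of all 4 genotypes. For Lactb2 the standard error was 0.59, while the SD was 0.09 in Keap1-KD and 0.14 in wild-type mice. It was 0.10 without replicate 1 of both extreme genotypes. Without those arrays 0 of the 14 genes passed the limma test as well (7 of all genes, 0.12%).

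**Figure D4:**
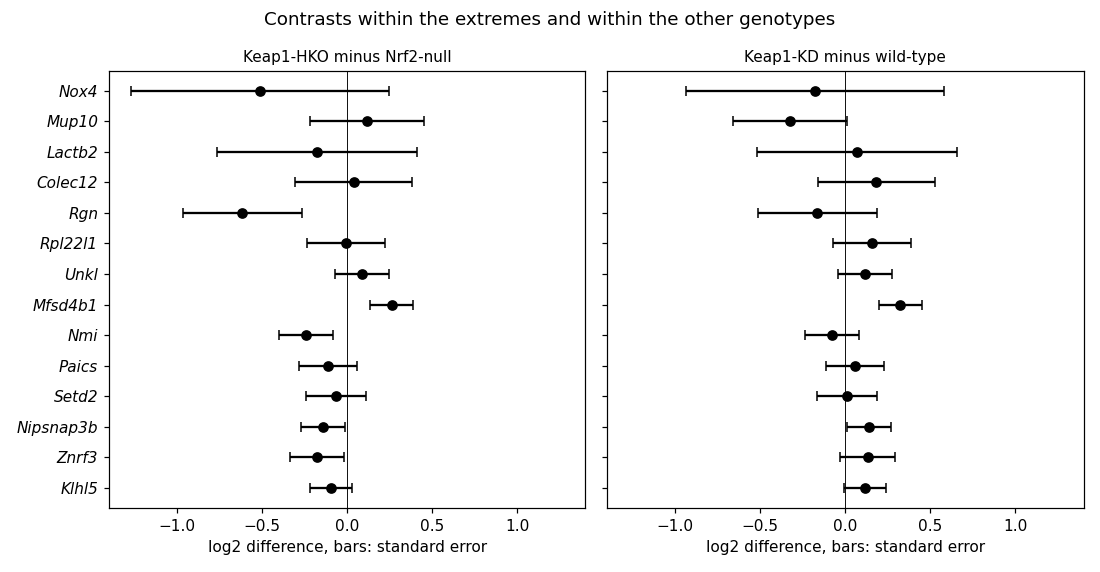
Log2 difference of Keap1-HKO minus Nrf2-null (left) and of Keap1-KD minus wild-type (right) on the x axes for the 14 genes on the y axis; points are limma estimates and bars 1 standard error. Most points lie within 1 standard error of 0 or near it, with Rgn at −0.62 on the left and Mfsd4b1 at 0.26 on the left and 0.32 on the right.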

How the data were processed

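Liver mRNA of 12 mice was measured on 12 arrays, and the deposited table holds log2 values. The authors obtained them with gcRMA (background correction, quantile normalization, summary per probe set) and removed probe sets that stayed under an intensity of 100 in all genotypes. Of the 9622 probe sets in the table, 8554 had 1 gene symbol. Each of 5856 genes was represented by its probe set of highest mean. The number of arrays limits the precision. Limma p-values rest on 1 spread per gene, pooled within the 4 genotypes of 3 mice each and moderated over genes. Those of Keap1-KD against wild-type mice thus also carry the spread of the extreme arrays. The members and lists were chosen with earlier results of these data known, and the family and pathway partners after the members were known. All 14 members are named, as are the genes nearest to the limits of the rule, while genes of the lists are given as counts. Contrasts came from 1 fit of the 4 genotypes by limma (version 3.58.1, R 4.3.3, functions lmFit and eBayes, 8 residual and 2.19 prior degrees of freedom) with Benjamini-Hochberg adjustment over all genes, after a test on simulated data. The labels give replicate numbers without saying what they share. The deviations of same-numbered arrays correlated across genes with r of 0.79, 0.69 and 0.70 between Keap1-HKO and Nrf2-null mice, and of 0.20, 0.18 and −0.06 between Keap1-KD and wild-type mice, so that the block was used within Keap1-HKO and Nrf2-null mice, as an added alternative. Alternatives covered the size limit, the probe set, low values, normalization, the form of the test, a replicate block and arrays left out. The block within the extreme genotypes and leaving out the 3 arrays with muscle transcripts were chosen after seeing the data. Scanner files were not used. Python 3.11.15 searched the promoters.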

Additional observations from a re-analysis of the deposited data

How the results depend on the processing

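The rule found 14 genes, against 7 and 2 at size limits of 0.5 and 1, 26, 73 and 56 without replicate 1, 2 or 3 of Keap1-HKO and Nrf2-null mice together, 130 without the 3 arrays with muscle transcripts, and 15 to 40 with 1 array left out. It found 25 and 32 without replicate 2 or 3 of Keap1-HKO, 40 and 27 without replicate 2 or 3 of Nrf2-null, 38 without replicate 1 of Keap1-KD and 25 without replicate 1 of wild-type mice. Other settings found 11 to 18 genes, among them 10 of the 14 after a second quantile normalization, 11 with the probe set of largest variance, 11 of those above an intensity of 200, 12 after median centring and 13 with the mean of all probe sets. In Keap1-HKO against Nrf2-null mice, 535 genes were called, against 1222 without replicate 1 of both, 1837 without the muscle arrays, 835 with array weights, 110 with only the 2 genotypes compared, 850 with Duncan's test, 1691 with the replicate block within the extreme genotypes and 693 with a replicate block over all arrays. With 1 array left out the count was 330 to 853, with 853 without Keap1-HKO replicate 1 and 330 without Nrf2-null replicate 2 or 3. Of the 14 genes, 0 were called, 1 with Duncan's test (Mfsd4b1), 1 with the block within the extremes (Rgn) and 3 without the muscle arrays (Nox4 by −2.58, Lactb2 by −1.77 and Rgn by −1.62, limma adjusted p = 0.0256, 0.0391 and 0.00628), where Keap1-HKO kept replicate 1 only and its spread was assumed to equal that of the others. In Keap1-KD against wild-type mice, 4 genes were called, against 1 after raising values to an intensity of 100, 0 after a second quantile normalization, 7 without replicate 1 of both extremes, 1 without the muscle arrays, 323 with array weights, 7 with only the 2 genotypes, 132 with Duncan's test and 3 with the replicate block over all arrays, and 1 to 5 with 1 array left out. Of the 14 genes, 1 was called with array weights and 1 with Duncan's test, Mfsd4b1 both times. With 1 array left out, 0 of the 14 genes were called in either contrast. The cause of these changes was not tested.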
